A study of Bos grunniens x Bos taurus and Bos grunniens with 6 samples.

Results

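The Tudor domain and GTSF genes of the germ granule were followed in testis RNA of the sterile hybrid cattle-yak and of the fertile yak. They comprised TDRD1, TDRD3, TDRD5, TDRD6, TDRD7, TDRD9, TDRKH, STK31, GTSF1 and GTSF1L, and were taken by gene symbol from the deposited table. Each symbol stood on a single gene, which gave 10 of the 18918 genes in the table, and all 10 were among the 15042 genes tested. The 3 cattle-yak (TES5, TES6 and TES7) were F1 males from a Jersey cattle sire and a Gannan yak dam, and the 3 yak (Yak8, Yak9 and Yak10) were Gannan males. All 6 animals were 4 years old, and each gave 1 RNA-seq library of whole testis tissue. Yak and hybrids were kept in different counties, and the study's methods give surgical castration for the cattle-yak and euthanasia for the yak, while the sample labels give castration for all. These conditions and the hybrid origin cannot be told apart in this design.

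Germ granules are membraneless bodies of RNA and protein in the cytoplasm of male germ cells, known as intermitochondrial cement in spermatocytes and as the chromatoid body in spermatids. PIWI proteins and the piRNAs that they carry, which silence transposons and cleave other transcripts, are gathered there. Tudor domains are protein modules that bind methylated arginines, including those of PIWI proteins, and so tie these proteins into the granule. GTSF proteins are small zinc finger proteins, of which GTSF1 is a partner of PIWI proteins in the cleavage of their targets.

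In cattle-yak 6 of the 10 genes fell, namely GTSF1L, TDRD6, GTSF1, TDRD5, TDRD9 and TDRD1, and none rose. GTSF1L was close to lost, with a mean of 1.88 FPKM (fragments per kilobase of gene model after scaling to a common number of fragments) against 562 in yak. TDRD6, GTSF1 and TDRD5 kept between 11.3% and 15.96% of the yak mean, and TDRD9 and TDRD1 kept 35.5% and 38.2%. TDRD7, TDRKH, TDRD3 and STK31 did not pass the threshold of the fold change, and their cattle-yak means were 50.5%, 77.6%, 133% and 143% of the yak mean.

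A gene was called when limma, fitted on log2 (FPKM + 1) of all tested genes, put its p, adjusted by Benjamini and Hochberg, under 0.05 and its log2 (foldchange) beyond 1 in either direction. On this scale the change of genes with low values is understated. SE stands for the standard error of the log2 (foldchange). By this rule 20.8% of all tested genes were lower in cattle-yak and 33.4% were higher, against 6 and 0 of the 10 genes. The median log2 (foldchange) was −1.40 over the 10 genes and 0.51 over all tested genes. In 8 of the 10 genes every cattle-yak value lay below every yak value, as in 30.2% of all tested genes, and in the other 2 every cattle-yak value lay above, as in 53.9%. By the adjusted p alone, with no threshold of the fold change, all 10 genes passed, as did 81.9% of the tested genes, with 8 lower (29.2% of the tested genes) and 2 higher (52.6%). In bulk tissue fewer cells of a type and less RNA per cell cannot be told apart. The values rest on 11175100 to 11834987 fragments on genes per cattle-yak library and 12991641 to 13136129 per yak library.

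**Figure D1:**
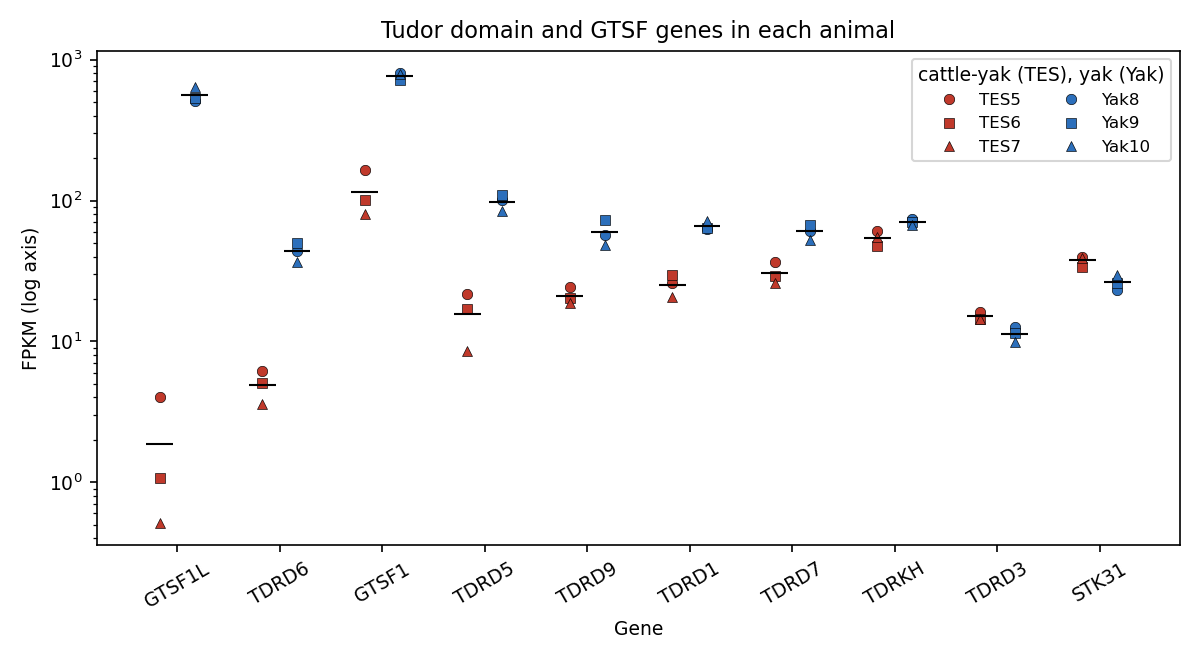
FPKM of the 10 genes (x axis, in order of their log2 fold change) in each animal on a log axis, with cattle-yak in red, yak in blue and a bar at each group mean of 3 animals. GTSF1L spans 0.516 to 4.05 FPKM in cattle-yak, against 511 to 639 in the yak animals, while the groups lie close together for TDRKH, TDRD3 and STK31.

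GTSF1L (ENSBGRG00000012590) encodes a paralog of GTSF1 and had the largest fall of the group. It had 4.05 FPKM in TES5, 1.07 in TES6 and 0.516 in TES7, against 511, 537 and 639 in Yak8, Yak9 and Yak10. Even the highest cattle-yak value was 126-fold below the lowest yak value. The group means were 1.88 ± 1.90 and 562 ± 67.4 FPKM (SD, n = 3), and the log2 (foldchange) was −7.80 (SE 0.38, limma adjusted p = 6.9e-07). Behind the cattle-yak values stood 24, 6 and 3 fragments, against 3363 to 4157 in a yak library. The 3 fragments of TES7 put the yak mean 1089-fold above that animal, with a 95% exact Poisson interval from 373 to 5282, which covers counting error only.

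GTSF1 (ENSBGRG00000000289) was the most abundant of the 10 genes in both groups. It had 165, 102 and 79.9 FPKM in TES5, TES6 and TES7, and 801, 716 and 787 FPKM in Yak8, Yak9 and Yak10. The groups lay far apart, although TES5 had 2.06 times the level of TES7. The log2 (foldchange) of GTSF1 was −2.79 (SE 0.23, limma adjusted p = 9.8e-06).

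Within a library the 2 GTSF genes changed unequally. In yak GTSF1L stood at 0.638, 0.751 and 0.812 of the level of GTSF1 in Yak8, Yak9 and Yak10. In cattle-yak the ratio was 0.0246 in TES5, 0.0106 in TES6 and 0.00646 in TES7. The log2 ratio was thus lower by 5.94 in cattle-yak (a difference of −5.94 with a standard error of 0.57), and the groups did not overlap. The exact permutation test (two-sided) gave p = 0.1, the smallest p that 3 animals against 3 allow, and 0.12 after adjustment over the 12 ratios compared. Together the 2 genes held 75.3% ± 2.68 of the summed FPKM of the 10 genes in yak but 35.5% ± 6.17 in the hybrids (SD, n = 3, exact permutation p = 0.1).

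Among the Tudor genes of the chromatoid body, TDRD6 (ENSBGRG00000025033), a protein with many Tudor domains in spermatids, fell most. Its level was 6.15, 5.04 and 3.59 FPKM in TES5, TES6 and TES7, against 43.8, 50.0 and 36.8 in Yak8, Yak9 and Yak10. The lowest yak value was 5.99-fold above the highest cattle-yak value. The log2 (foldchange) was −2.92 (SE 0.19, limma adjusted p = 2.45e-06).

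TDRD5 (ENSBGRG00000009089), which is required for the assembly of the chromatoid body and for spermatid development, was the most abundant of the 8 Tudor genes in yak. In Yak8, Yak9 and Yak10 it had 100.4, 109 and 84.8 FPKM. The cattle-yak values were 21.6, 16.8 and 8.55 FPKM in TES5, TES6 and TES7, with the lowest at 8.70% of the yak mean. The log2 (foldchange) of TDRD5 was −2.65 (SE 0.29, limma adjusted p = 4.4e-05).

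TDRD7 (ENSBGRG00000001363), also of the chromatoid body and known for its role in the lens, differed less than these. It had 36.3, 29.1 and 26.1 FPKM in TES5, TES6 and TES7, and 61.2, 67.4 and 52.7 in Yak8, Yak9 and Yak10. Every cattle-yak animal was below every yak animal, but the log2 (foldchange) of −0.97 (SE 0.15, limma adjusted p = 3.3e-04) lay just inside the threshold of 1. It passed this threshold without TES5 (−1.10), without Yak10 (−1.06) and with median-of-ratios scaling (−1.57). The ratio of TDRD6 to TDRD7 within a library was 0.169, 0.173 and 0.138 in TES5, TES6 and TES7, and 0.716, 0.742 and 0.699 in Yak8, Yak9 and Yak10. It was 4.51-fold lower in cattle-yak, with little spread within either group (exact permutation p = 0.1).

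TDRD1 and TDRD9 belong to the piRNA machinery of the intermitochondrial cement and of prospermatogonia. TDRD1 (ENSBGRG00000025091), a scaffold that binds PIWIL2, had 25.7, 29.5 and 20.7 FPKM in TES5, TES6 and TES7, and 63.2, 63.6 and 71.8 in Yak8, Yak9 and Yak10. Its log2 (foldchange) was −1.36 (SE 0.14, limma adjusted p = 3.0e-05). TDRD9 (ENSBGRG00000004595), an RNA helicase that acts with PIWIL4, stood at 24.4, 20.2 and 18.9 FPKM in TES5, TES6 and TES7, and at 57.3, 73.1 and 48.2 in Yak8, Yak9 and Yak10. The log2 (foldchange) of TDRD9 was −1.44 (SE 0.17, limma adjusted p = 6.7e-05). The ratio of TDRD9 to TDRD1 ranged from 0.685 to 0.947 in the hybrids and from 0.672 to 1.15 in yak, so the ranges overlapped. Their log2 ratio differed by −0.08 between the groups with a standard error of 0.27 (exact permutation p = 1).

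TDRKH (ENSBGRG00000002702), a mitochondrial protein that holds PIWI proteins while piRNAs are trimmed, was lower in cattle-yak by less than the threshold. It had 60.8, 47.4 and 55.4 FPKM in TES5, TES6 and TES7, and 73.6, 69.9 and 67.4 in Yak8, Yak9 and Yak10. The groups did not overlap, but −0.37 on the log2 scale (SE 0.11, limma adjusted p = 1.5e-02) did not reach the threshold of the fold change. This was −0.88 from the median of all tested genes. With an animal left out, TDRKH ran from −0.45 to −0.27. With median-of-ratios scaling it lay at −0.98, just inside the threshold. Centring on Sertoli cell markers brought it to −2.73, past the threshold, but also moved the median of all tested genes to −1.85.

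STK31 and TDRD3 lay on the other side. STK31 (ENSBGRG00000000834), with a Tudor domain beside a kinase domain, had 39.5, 34.0 and 39.3 FPKM in TES5, TES6 and TES7, and 23.0, 26.1 and 29.6 in Yak8, Yak9 and Yak10. TDRD3 (ENSBGRG00000006592), a broadly expressed reader of methylated histones, stood at 16.2, 14.4 and 14.5 FPKM in TES5, TES6 and TES7, and at 12.6, 11.5 and 9.94 in Yak8, Yak9 and Yak10. Both had higher values in every cattle-yak animal. The log2 (foldchange) was 0.51 for STK31 (SE 0.12, limma adjusted p = 5.1e-03) and 0.38 for TDRD3 (SE 0.13, limma adjusted p = 2.3e-02), both under the threshold of 1. These values were close to the median of all tested genes of 0.51, at −0.01 from it for STK31 and −0.13 for TDRD3. With median-of-ratios scaling, which brought that median to 0.01, both turned negative, at −0.094 for STK31 and −0.19 for TDRD3. By that scaling 7 of the 10 genes were lower and none higher, against 27.8% and 17.7% of all tested genes.

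**Figure D2:**
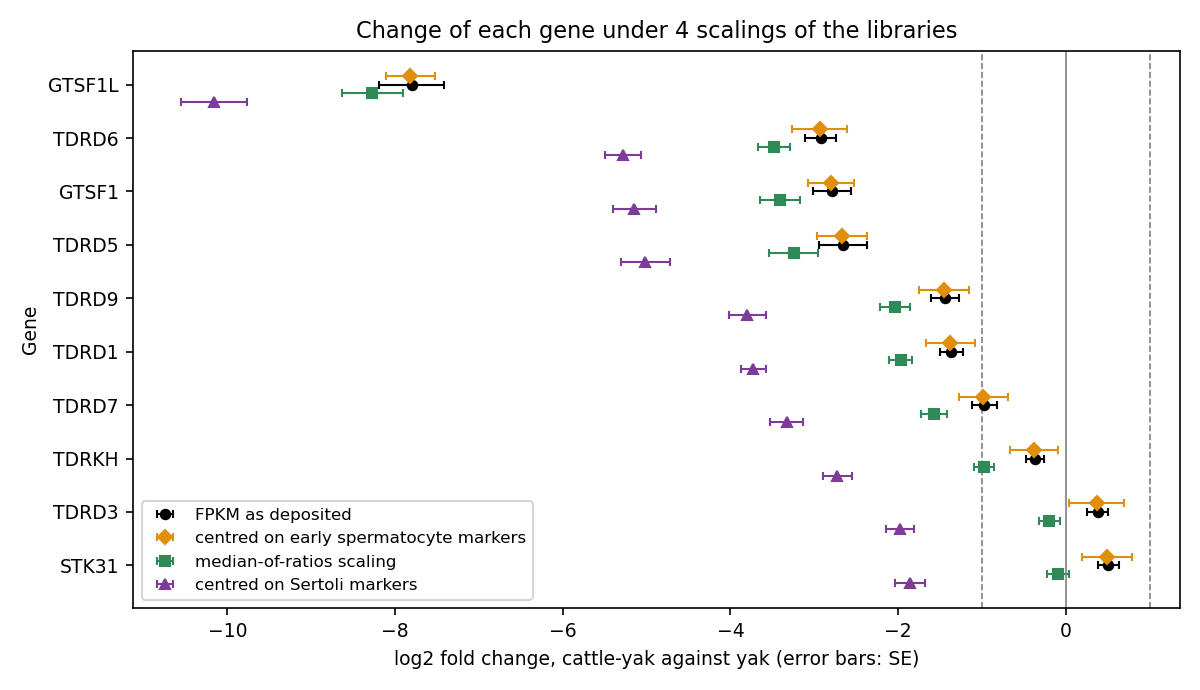
Log2 fold change of each gene between cattle-yak and yak with its standard error (3 animals against 3), for the FPKM as deposited and under 3 other scalings of the libraries, with dashed lines at −1 and 1. The genes run from GTSF1L (−7.80) to STK31 (0.51). Centring on a marker list shifts every gene by the same amount and so cannot change their order. Median-of-ratios scaling, which could change it, kept it. Sertoli centring shifts every gene down.

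The deposited FPKM are scaled to the depth of each library but not for its composition, and a further scaling moved all genes together. Centring each library on 9 Sertoli cell markers shifted the median of all tested genes to −1.85, and 10 of the 10 genes were then lower, with STK31 at −1.85 and TDRD3 at −1.98. By that scaling 78.1% of all tested genes were lower and 0.173% higher. Centring on 8 early spermatocyte markers, whose median log2 (foldchange) was −0.09, left TDRD5 at −2.67, TDRD1 at −1.38 and STK31 at 0.49. The mean of these markers was nearly the same in both groups, so every gene shifted by the same small amount. The nearly unchanged values thus follow from the choice of markers and are no check of the changes. With this centring the same 6 genes were called lower (21.1% of all tested genes lower, 33.0% higher), although its p-values are not comparable with the others. They were also called lower by voom on the recovered fragments (22.7% lower, 39.7% higher).

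Ratios within a library do not depend on such scaling. Relative to TDRD3, the member expressed in most tissues, the other genes except STK31 were lower in cattle-yak with no overlap between the groups. Among single tested genes the groups were also apart in 30.2% with cattle-yak lower and in 53.9% with cattle-yak higher. These ratios share TDRD3 as their denominator and are not separate results. The ratio was lower by 8.89-fold for TDRD5, 11.9-fold for TDRD6 and 9.26-fold for GTSF1. It was lower by 3.71-fold for TDRD9, 3.51-fold for TDRD1, 2.65-fold for TDRD7 and 1.72-fold for TDRKH. For each of these the exact permutation test gave p = 0.1, the smallest possible, and 0.12 adjusted over the ratios. The ratio of STK31 to TDRD3 was 2.43, 2.36 and 2.71 in TES5, TES6 and TES7 and 1.83, 2.26 and 2.98 in Yak8, Yak9 and Yak10. These ranges overlapped, and the difference of the log2 ratio was 0.11 with a standard error of 0.21 (exact permutation p = 0.7).

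**Figure D3:**
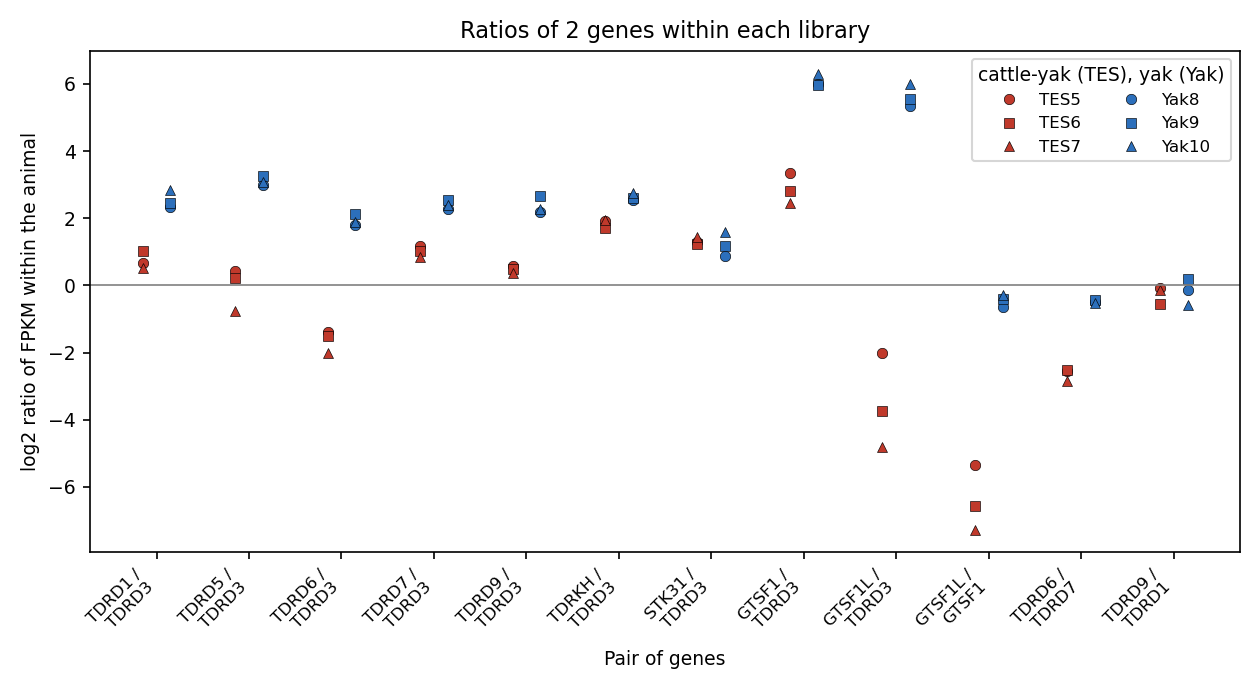
Log2 ratio of the FPKM of 2 genes within each library for the 12 pairs compared, with cattle-yak in red and yak in blue. The groups are apart in 10 of the 12 pairs and overlap for STK31 over TDRD3 and for TDRD9 over TDRD1. Most pairs share TDRD3 and are not separate results, and the share over other pairs of genes was not computed. Among single tested genes the groups were apart in 30.2% with cattle-yak lower and in 53.9% with cattle-yak higher.

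The order of the levels, which can be compared between genes because FPKM are per length, was different in the groups. In yak it ran from GTSF1 (768 FPKM) and GTSF1L (562) through TDRD5 (98.2), TDRKH (70.3), TDRD1 (66.2), TDRD7 (60.4), TDRD9 (59.5) and TDRD6 (43.5) to STK31 (26.2) and TDRD3 (11.4). The ranges over the animals overlapped between each neighbour from TDRKH to TDRD6 and were apart elsewhere. In cattle-yak GTSF1 (115 FPKM) was followed by TDRKH (54.6), STK31 (37.6), TDRD7 (30.5), TDRD1 (25.3), TDRD9 (21.1), TDRD5 (15.7), TDRD3 (15.1), TDRD6 (4.93) and GTSF1L (1.88). Here the ranges overlapped between each neighbour from STK31 to TDRD3, and between TDRD6 and GTSF1L. GTSF1L thus stood at a mean percentile of 99.3 among the tested genes of a yak library and of 16.05 in a cattle-yak library. STK31 moved from the percentile of 71.2 to 78.1 and TDRKH from 87.6 to 84.8. Summed over the 10 genes, the level was 1766 ± 53.7 FPKM in yak against 322 ± 69.0 in cattle-yak (SD, n = 3, exact permutation p = 0.1).

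The spread between animals differed from gene to gene. The coefficient of variation was 101% for GTSF1L, 42.3% for TDRD5 and 38.2% for GTSF1 in cattle-yak, against 12.0%, 12.7% and 5.94% in yak. TDRD6 varied by 26.0% in cattle-yak and 15.1% in yak, and TDRKH by 12.3% and 4.38%. For TDRD9, which also fell, it was the other way, with 13.7% in cattle-yak and 21.2% in yak, as for STK31 (8.31% and 12.7%) and TDRD3 (6.86% and 11.7%). These spreads were not tested. TES5 had the highest cattle-yak value for 9 of the 10 genes, with TDRD1 as the exception, and TES7 the lowest for 7. Over all tested genes TES5 was highest in 34.9%. The full order TES5, TES6, TES7 held for 6 of the 10 genes and for 19.2% of all tested genes. TES5 exceeded TES7 by 7.84-fold for GTSF1L, 2.53-fold for TDRD5, 1.71-fold for TDRD6 and 1.01-fold for STK31. For GTSF1L this fold rests on 24 against 3 fragments, so counting error is part of it and of the 101% above.

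Markers of the germ cell stages moved between the same animals. The summed FPKM of the 4 late spermatocyte markers in the table was 167, 112 and 86.7 in TES5, TES6 and TES7 and 600 to 691 in yak. For the 6 round spermatid markers it was 29.1, 13.7 and 6.23 against 518 to 581, and for the 8 elongating spermatid markers 96.9, 38.8 and 21.7 against 10376 to 12671. None of these markers was at 0 in all the cattle-yak libraries, and 1 was at 0 in TES7. The early spermatocyte markers summed to between 215 and 363 FPKM in the hybrids, a range that held the yak sums of 263 to 295. Relative to the yak mean, the elongating spermatid markers stood at 0.831%, 0.333% and 0.186% in TES5, TES6 and TES7, and GTSF1L at 0.720%, 0.191% and 0.0918%. The late spermatocyte markers stood at 25.8%, 17.2% and 13.4%, and GTSF1 at 21.4%, 13.2% and 10.4%. The part of these cells in the levels of the 10 genes was not tested.

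**Figure D4:**
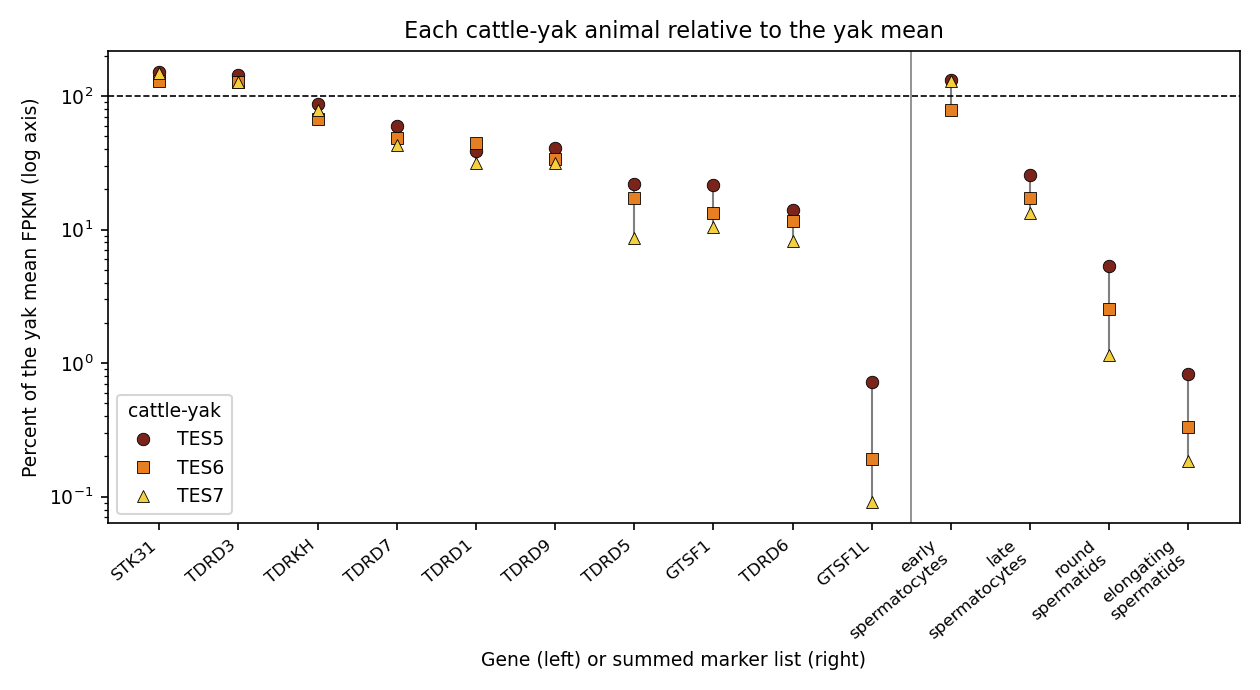
Level of each gene (left) and summed level of 4 germ cell marker lists (right) in each cattle-yak animal, as a percent of the yak mean on a log axis with a dashed line at 100%. TDRD5, GTSF1 and TDRD6 lie between 8.26% and 22.04%, near the late spermatocyte markers, and GTSF1L lies below 1% with the elongating spermatid markers.

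Over all tested genes 20.8% were called lower in cattle-yak and 33.4% higher, to be set beside the calls of each marker list. All 4 tested late spermatocyte markers fell, with a median log2 (foldchange) of −3.07, led in level by HSPA2 (−1.94) and PIWIL1 (−3.32). The 6 round spermatid markers fell with a median of −5.04 and the 8 elongating spermatid markers, TNP1 and PRM2 (−8.27 and −8.03) among them, with a median of −7.62. Of the 8 early spermatocyte markers, SYCP3 rose (1.10) and 7 were not called, HORMAD1 (0.53) among them. The 8 ran from −0.66 to 1.10, with 4 of them below 0 and a median of −0.09. Undifferentiated spermatogonia markers had a median of 1.99, with 5 of the 7 tested genes higher, UCHL1 (1.99) and ID4 (2.72) among them, and differentiating spermatogonia markers 0.80, with 3 of 6 higher. The somatic lists lay above the median of all genes, at 2.46 for Sertoli cells (9 of 9 higher), 1.98 for Leydig cells (6 of 6) and 2.01 for myoid cells (6 of 6). For endothelium it was 0.95 (3 of 6 higher, 1 lower) and for macrophages 1.16 (3 of 5 higher, 1 lower). The labelled tissue thus had markers of Sertoli, Leydig and germ cells in both groups.

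**Figure D5:**
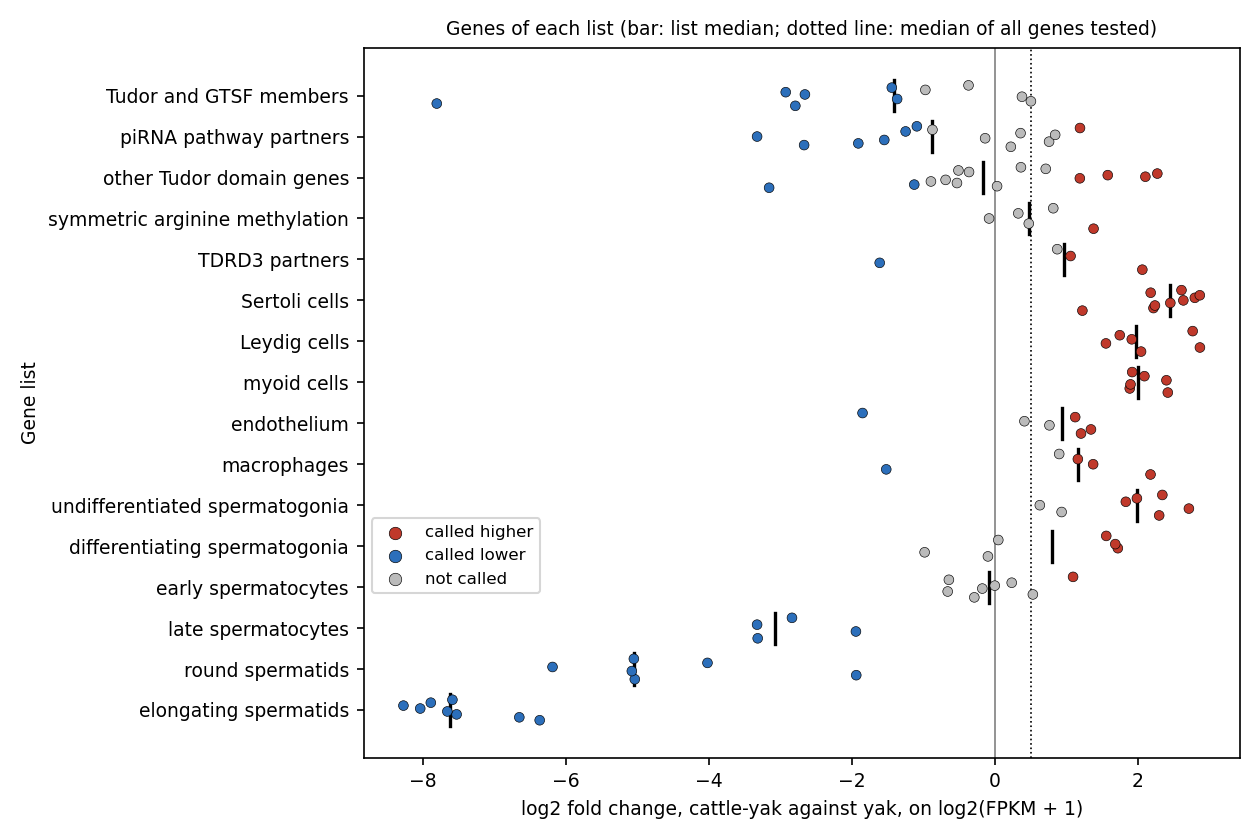
Log2 fold change between cattle-yak and yak of every tested gene in each list, with called genes in red (higher) or blue (lower), other genes in grey, a bar at the median of the list and a dotted line at the median of all tested genes (0.51). Of the Tudor and GTSF genes, GTSF1L lies alone at −7.80, among the elongating spermatid markers, and the others lie from −2.92 to 0.51.

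The piRNA pathway genes that work with these proteins were divided in the same comparison. Of 13 partners tested, 6 fell, 1 rose and 6 were not called, with a median log2 (foldchange) of −0.87. PIWIL1, the PIWI protein of late spermatocytes and spermatids, fell by 3.32 on the log2 scale, to 15.7 ± 9.29 from 148.4 ± 14.2 FPKM (SD, n = 3). It is also 1 of the 4 late spermatocyte markers, so these lists share a gene. DDX25, a helicase of the chromatoid body, fell by 2.67, and FKBP6, a cochaperone in piRNA loading, fell by 1.91. SPOCD1, which takes part in piRNA-directed DNA methylation, rose by 1.19, from 6.55 ± 2.26 to 15.9 ± 2.63 FPKM. ASZ1 and MOV10L1, which act early in piRNA formation, lay at 0.23 (limma adjusted p = 6.6e-02) and −0.13 (adjusted p = 0.423), with 30.1 and 26.0 FPKM in cattle-yak. Beside the 6 lower and 1 higher of 13 genes stand 20.8% lower and 33.4% higher among all tested genes, or 54.2% in either direction.

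Of 14 other Tudor domain genes, 2 fell, 4 rose and 8 were not called, with a median of −0.16. Among all tested genes 20.8% were lower and 33.4% higher, so these counts do not set the list apart. AKAP1, a mitochondrial anchor of protein kinase A, fell by 3.15 on the same scale, to 19.3 ± 1.05 from 180 ± 14.5 FPKM. PHF1, a Polycomb partner, fell by 1.13. TDRD10 rose by 2.27 (16.8 ± 3.08 FPKM in cattle-yak against 2.69 ± 0.72 in yak), and SND1, a nuclease of RNA granules in most cell types, by 2.11. SPIN1, a reader of methylated histones whose symbol stands on a second gene and is therefore uncertain, rose by 1.58. RNF17, a further Tudor protein of male germ cells, stood at 29.0 ± 4.64 FPKM in the hybrids and 54.2 ± 1.96 in yak, and its log2 (foldchange) of −0.89 (limma adjusted p = 2.1e-04) stayed under the threshold. SETDB1, a histone methyltransferase, had −0.69.

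The arginine methylation that Tudor domains read is laid down by PRMT5 and its cofactors. The level of PRMT5 was 106 ± 8.70 FPKM in the hybrids and 75.7 ± 6.35 in yak, and its log2 (foldchange) of 0.48 was not called. CLNS1A, a PRMT5 cofactor, rose by 1.38 as the only call among the 5 genes of this list, whose median was 0.48. PRMT9, another symmetric arginine methyltransferase, had −0.08 (limma adjusted p = 0.594). Among 4 partners of TDRD3, FMR1 and FXR2 rose by 2.06 and 1.06, the related RNA-binding protein FXR1 fell by 1.61, and the topoisomerase TOP3B had 0.87, which was not called. Beside the calls of both lists stand 20.8% lower and 33.4% higher among all tested genes.

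Genes with the most similar pattern over the 6 animals were sought among all tested genes with a symbol. The measure was the Euclidean distance of log2 (FPKM + 1) centred on each gene, which leaves out its mean level. For GTSF1L the nearest genes were GSG1, HILS1 and CABS1, at distances of 0.272, 0.278 and 0.349. For GTSF1 they were SOX30, LRRC6 and SEPTIN10 (0.210 to 0.231), and for TDRD6 MSTO1, BRAF and SLC26A6 (0.186 to 0.217). TDRD5 was nearest to ADAM1A (0.205), a symbol on 3 genes and so uncertain, C9ORF43 (0.218) and JPH4 (0.267). TDRD1 was nearest to GUCY1A1 (0.123), and STK31 to MANF (0.088). Within the group of 10, GTSF1 and TDRD6 lay at 0.557 from each other, GTSF1 and TDRD5 at 0.560, STK31 and TDRD3 at 0.517 and TDRD7 and TDRD9 at 0.609. GTSF1L was at 6.06 from its nearest member, TDRD6.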

How the data were processed

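Testis RNA from 3 cattle-yak and 3 yak was sequenced as stranded mRNA libraries, 1 per animal. Per the study's methods, the authors used Trimmomatic for trimming, HISAT2 for mapping both groups to LU_Bosgru_v3.0, a yak assembly, and Cufflinks for FPKM. Reads of the cattle genome copy in the hybrids were thus mapped to yak sequence, whose effect on single genes was not tested. The FPKM values were used as deposited by the authors, with no scaling between libraries beyond that for depth. Groups follow the sample labels. Separate animals are replicates.

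Whole fragments were recovered from the FPKM steps for 17969 of 17973 genes with at least 2 values above 0 (tolerance 0.001 fragments). A mean FPKM of 0.5 or more was required, and genes were tested with limma 3.58.1 in R 4.3.3 (variance trend, two-sided, pseudocount 1). The recovery and the fit were tested on simulated data. Ratios and sums were compared with exact permutation tests (scipy 1.17.1). Python 3.11.15 and matplotlib 3.10.9 were used for the rest.

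The 10 genes and the lists (4 of related genes, 11 of cell type markers) were chosen with earlier results of these data known. All 10 genes are named. Of each related list, up to 3 called genes per direction with the largest change and up to 2 uncalled genes of highest mean FPKM are named, and of marker lists the most abundant. A symbol on several genes was taken by its most abundant gene. DDX4, EXD1, MYBL1, SMN1, HSD3B1, HSD17B3, MRC1, UTF1, OVOL1 and ACRV1 had no row under these symbols and were not analysed here. LIN28A was under the minimum for the test.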

Additional observations from a re-analysis of the deposited data

How the results depend on the processing

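The alternatives were pseudocounts of 0.1, other filters, 4 other scalings, limma without a variance trend, voom on recovered fragments, no fold threshold, and leaving out the 6 animals one by one. The 6 genes called lower stayed so under every one of them, although the calls made with early spermatocyte centring are not comparable with the others. Sertoli centring lowered every gene by the same amount, and dropping the fold threshold only loosened the rule. Neither is therefore a check of these 6 calls. With all 10 genes lower under Sertoli centring, and TDRD3 (−1.98) and STK31 (−1.85) reversed by it, as by median-of-ratios scaling (−0.19 and −0.094), the direction of these 2 genes rests on the scaling. Without the fold threshold 8 genes were lower and 2 higher, against 29.2% and 52.6% of all tested genes. Not all 10 kept a limma adjusted p under 0.05 in the other fits. TDRD3 was at 0.070 without TES5 and 0.073 without Yak10, and TDRKH at 0.051 without Yak8. With median-of-ratios scaling the limma adjusted p was 0.20 for TDRD3 and 0.53 for STK31. With an animal left out, 6 to 7 genes were lower. After median-of-ratios scaling 0 of 13 piRNA partners, 0 of 5 arginine methylation genes and 1 of 4 TDRD3 partners were higher. Of the 14 other Tudor genes 5 were lower and 2 higher. By that scaling 27.8% of all tested genes were lower and 17.7% higher. After Sertoli centring 13 of 13 piRNA partners and 11 of 14 other Tudor genes were lower. So were 4 of 5 arginine methylation genes and 3 of 4 TDRD3 partners, and 0 of any of these lists were higher. By that centring 78.1% of all tested genes were lower and 0.173% higher. No paired analysis was possible because the groups are different animals, with no pairing given in the study's methods or the labels. The depth limits GTSF1L in cattle-yak, where counting error alone spans 0.106 to 1.51 FPKM in TES7. In the other 9 genes counting error was at most 12.3% of a value. Centring on early spermatocyte markers adds the spread of those markers to every gene. For TDRD1 the SE rose from 0.14 to 0.29, yet the limma adjusted p fell from 3.0e-05 to 9.0e-06. It also fell for the other genes called lower, to 6.2e-149 for GTSF1L, but rose for TDRD3, TDRD7, TDRKH and STK31. These p-values, and the calls made from them, are not comparable with those of the other fits and do not count as support.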

Other observations

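The GO terms deposited beside each gene place 5 of the 10 genes in overlapping granule bodies. Chromatoid body was given to TDRD1, TDRD5 and TDRD6, pi-body to TDRD1, TDRD5 and TDRKH, and piP-body to TDRD9 and TDRKH. Of the 7 other tested genes with the term chromatoid body, 2 were lower in cattle-yak, 2 higher and 3 not called, with a median log2 (foldchange) of 0.85. The 10 other tested genes with piRNA metabolic process had 4 lower and 0 higher at a median of −0.25, and the 12 others with DNA methylation involved in gamete generation had 3 lower, 2 higher and a median of 0.29. Among 283 other tested genes with the term spermatogenesis, 127 were lower and 56 higher, with a median of −0.67. Over all tested genes 20.8% were lower and 33.4% higher, with a median of 0.51. These terms were chosen after the table was examined, and the counts are descriptions with no test.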
